A study of Bombyx mori with 12 samples.

Results

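Genes of protein degradation were followed in ovaries of the domestic silkworm, Bombyx mori: subunits of the proteasome, enzymes that attach or remove ubiquitin and its relative SUMO, and autophagy genes. They were chosen by the wording of the table's gene descriptions (proteasome, ubiquitin, autophagy, cathepsin or SUMO) or a gene name starting with ATG, leaving out ribosomal proteins. This gave 38 of the 15745 listed genes: 12 of the proteasome, 21 of the ubiquitin system, 2 of the SUMO pathway and 3 of autophagy. No description in the table held the word cathepsin, so that class had 0 members. The 2 autophagy genes that mark the set were found, ATG8 by name and ATG3 by its description only.

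The samples were ovaries of female pupae of 2 lines, labelled WT and TBH, at the pupal stages P2 and P4, with 3 samples in each of the 4 groups. By its title, the study concerns hyperproteinemia, too much protein in the blood fluid, in a silkworm line with that trait. The labels spell out neither the name TBH nor the allele behind it, and give no treatment. They speak of 5 dissected female pupae with n = 3, and whether a sample pools pupae is not stated, so the p-values rest on sample-to-sample spread that may in part be technical. The values are a normalized expression signal with no unit named, so read depth is unknown. It is not stated whether they are per transcript length. Sums over genes, and the part of single genes in them, therefore describe the listed values only. The same holds where genes were picked by their mean value. Otherwise, levels of different genes are not compared.

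The proteasome is a barrel of alpha and beta subunit rings, the 20S core, which cuts proteins, capped by a regulatory particle that recognises ubiquitin chains. Ubiquitin is activated by an E1 enzyme, passed to an E2 conjugating enzyme and joined to a target with the help of an E3 ligase, and ubiquitin hydrolases take it off again. SUMO, a small protein of the same fold, is attached by its own E1 and E2, mostly without degrading the target. Autophagy encloses cytoplasm in a membrane for digestion in the lysosome: ATG8 is joined to the lipid of that membrane, ATG3 is the E2-like enzyme of this step, and Atg12 helps to catalyse it. In silkworm ovaries, autophagy is known from the nurse cells and follicle cells that die late in oogenesis.

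Of the 38 genes, 28 passed the low-value filter, which asks for 1 or more in 3 or more of the 12 samples: 11 of the proteasome, 12 of the ubiquitin system, both of the SUMO pathway and all 3 of autophagy. In all, 73.7% of the 38 and 33.2% of all listed genes passed. The other 10 were 9 ubiquitin genes and 1 proteasome alpha subunit (BGIBMGA009234), which stood at 3.05 in WT P2 replicate 3, at 0.22 in TBH P4 replicate 3 and at 0 elsewhere. Listed at 0 in all 12 samples were 3 of the ubiquitin hydrolases. The hydrolase BGIBMGA007073 reached 3.87 in TBH P4 replicate 3 and 2.22 in TBH P2 replicate 2, and BGIBMGA009941 reached 1.25 in TBH P4 replicate 3. The hydrolase BMO.4485 and the E3 ligase BGIBMGA005933 stayed at or under 0.45. SIWI and NANOSO, genes of the germ line, were also at 0 in all samples, as were 28.8% of all listed genes. Whether an exact 0 is a failed estimate or a lack of RNA was not tested. The eggshell gene VMP23 (BGIBMGA006755) ran from 3.16 to 13.4 over the 6 samples at P2 and from 401 to 1210 over the 6 at P4.

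Some libraries stood apart, and the results are given with this in view. Per sample, the sum of all listed values lay between 468559 and 664134, and WT P2 replicate 2 had the highest. WT P2 replicate 1 had the most genes above 0 of all samples, 7772, and TBH P4 replicate 3 had 7485, against 6626 and 6687 in the other samples of its group. WT P2 replicate 1 was the highest of its group for 16 of the 28 genes and for 59.9% of all 5235 tested genes. TBH P4 replicate 3 was the highest of its group for 18 of the 28 and for 67.9% of all tested genes. WT P2 replicate 2 departed the other way. It had the fewest genes above 0 of all samples, 6399, and was the lowest of its group for 15 of the 28 and for 52.2% of all tested genes. In these directions, the degradation genes followed the libraries about as often as other genes did. Against them, WT P2 replicate 2 was the highest of its group for 8 of the 28, 6 of them proteasome genes, and for 16.0% of all tested genes. TBH P4 replicate 3 was the lowest of its group for 6 of the 28 and for 13.9% of all. For WT P2 replicate 1 this was so for 3 of the 28 and 10.7% of all.

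In the comparison of lines at P2, which asks what differs in TBH ovaries early in the pupa, 0 of the 28 genes passed in either direction, against 1.49% of all tested genes (limma, Benjamini-Hochberg adjusted p under 0.05). Without adjustment, p was under 0.05 for 0 of the 28, against 3.55% of all genes higher and 3.50% lower. The median log2 change of the 28 was 0.01, beside -0.01 for all genes. Without overlap between the groups, 1 of them was lower in TBH and 0 were higher, against 4.16% and 4.76% of all genes. It was the ubiquitin hydrolase BGIBMGA007317, with TBH samples at 4.21, 4.79 and 3.91 and WT samples at 5.77, 5.5 and 6.27 (limma adjusted p = 1.0).

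At P4, too, 0 of the 28 passed between the lines, against 1.93% of all tested genes in limma. At an unadjusted p of 0.05, ATG8 was higher in TBH and the Atg12-like gene and the ubiquitin hydrolase BGIBMGA013218 were lower, against 7.41% of all genes higher and 4.32% lower. The hydrolase had the smallest adjusted p (0.0551), but it passed the low-value filter only through the WT samples at P4, the group in which it was high. All genes shifted by a median log2 of 0.18 towards TBH, and the 28 by 0.15. Without overlap between the groups, 3 were higher and 2 lower in TBH, against 14.0% and 6.72% of all tested genes.

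Between the stages, 2 of the 28 fell from P2 to P4 in WT ovaries, ATG8 and the ubiquitin hydrolase BMO.1322, and 0 rose, against 3.09% of all tested genes lower and 1.01% higher (limma). At an unadjusted p under 0.05, 8 were lower and 1 higher, against 18.7% and 3.74% of all genes. Without overlap between the stages, 9 were lower and 1 higher, against 21.5% and 4.41%. All genes shifted by a median log2 of -0.42 over these stages, and the 28 by -0.43. In TBH ovaries 0 of the 28 passed in limma, against 1.70% of all genes. There, 5 were lower and 0 higher at an unadjusted p under 0.05, against 8.19% and 2.60% of all genes. Without overlap, 3 were lower and 0 higher, against 11.9% and 4.64%, and the median was -0.28 beside -0.21 for all genes. The test of whether the line effect differed between the stages called 0 of the 28 in limma, against 0.287% of all genes. At an unadjusted p under 0.05, 1 was lower and 0 higher, against 2.18% and 2.96% of all genes.

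**Figure D1:**
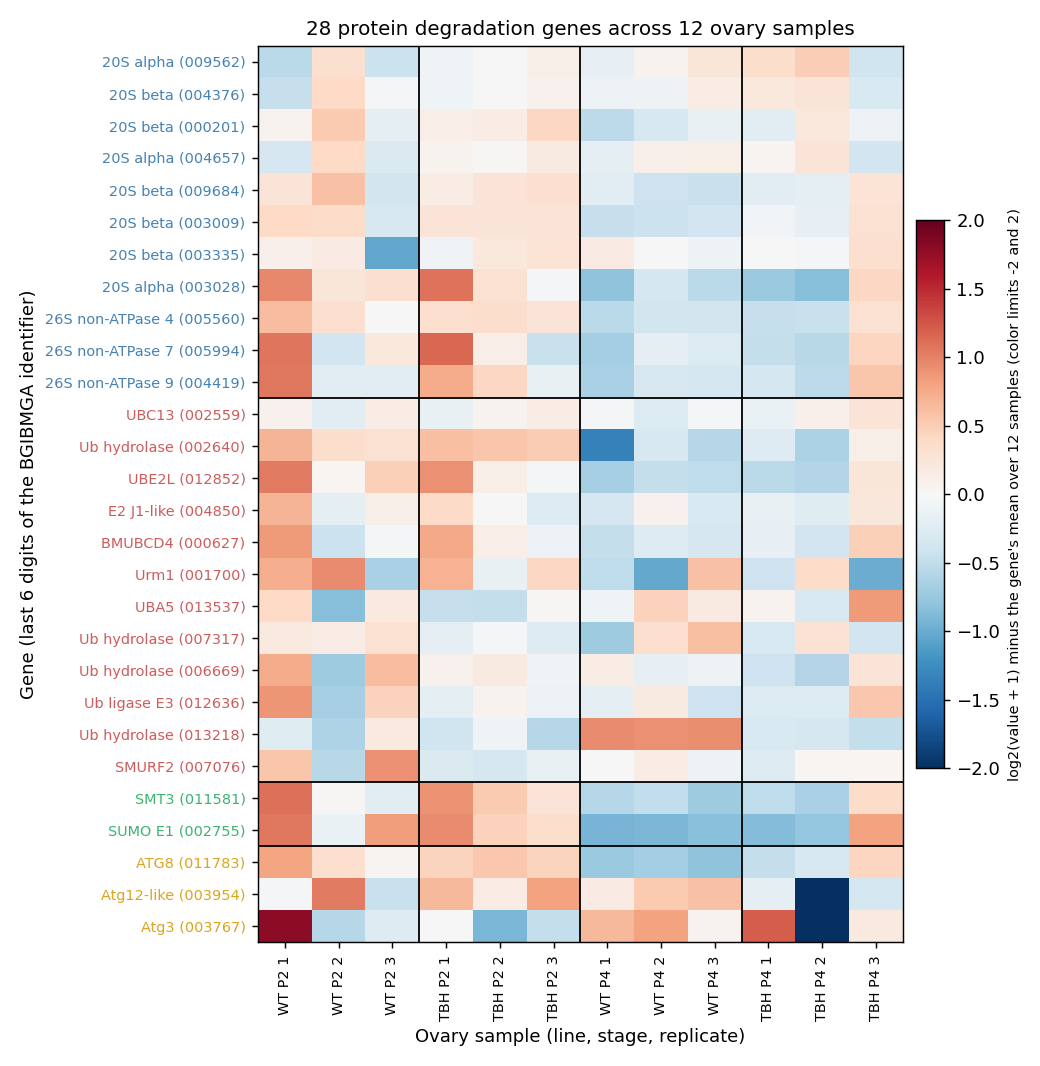
Each row is 1 of the 28 genes above the filter and each column 1 ovary sample. Color gives log2(value + 1) minus the gene's mean over the 12 samples, limited at -2 and 2, and row labels are colored by class (from the top: proteasome, ubiquitin, SUMO, autophagy). SMT3, the SUMO E1, ATG8 and the alpha subunit BGIBMGA003028 are blue in every WT P4 column and reddish in that of TBH P4 replicate 3.

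The 20S core is represented by 5 beta and 3 alpha genes above the filter. The alpha subunit BGIBMGA009562 stood at 1299, 2356 and 1404 in WT and at 1805, 1892 and 2038 in TBH at P2. At P4 it stood at 1693, 1988 and 2225 in WT and at 2407, 2649 and 1440 in TBH. The samples WT P2 replicates 1 and 3 and TBH P4 replicate 3 were its lowest values, and the groups overlapped in every comparison. The beta subunit BGIBMGA004376 (BMO.323) stood at 532, 962 and 712 in WT at P2, at 686, 739 and 780 in TBH at P2, at 676, 678 and 807 in WT at P4 and at 842, 873 and 593 in TBH at P4. Its lowest values, too, were WT P2 replicate 1 and TBH P4 replicate 3. Its log2 change between the lines was 0.04 at P2, with a 95% interval from -0.47 to 0.55, and 0.08 at P4, from -0.43 to 0.59 (limma).

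For the alpha subunit BGIBMGA003028, the same libraries were the highest of their groups. It stood at 210, 127 and 134 in WT and at 229, 134 and 106 in TBH at P2. At P4 it stood at 61.2, 84.6 and 73.8 in WT and at 63.8, 58.9 and 144 in TBH. All WT samples at P4 lay under all at P2, and TBH P4 replicate 3 stood at more than the other TBH samples of that stage. Its log2 change from P2 to P4 was -1.07 in WT and -0.85 in TBH, and neither passed (limma adjusted p = 0.13 and 0.448). The beta subunit BGIBMGA003009 was the core gene nearest to a line difference at P4, at 282, 263 and 364 in TBH against 213, 217 and 225 in WT. These groups did not overlap, and the log2 change of 0.46 ± 0.21 (SE) did not pass (adjusted p = 0.446). The beta subunit BGIBMGA009684 (BMO.3609) also lay higher in TBH at P4 without overlap, at 319, 321 and 446 against 316, 276 and 270 (adjusted p = 0.735).

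The remaining core genes overlapped between the lines at both stages. The beta subunit BGIBMGA000201 ranged from 298 to 612 over the 12 samples, the alpha subunit BGIBMGA004657 from 290 to 499, and the beta subunit BGIBMGA003335 (BMO.3275) from 97.0 to 251. For the last, WT P2 replicate 3 at 97.0 was the lowest, and all other samples were at 187 or above. With WT P2 replicate 3 left out, its group would stand at 214 and 225, within the range of 190 to 241 in TBH at P2.

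The regulatory particle was represented by non-ATPase subunits 4, 7 and 9. In yeast and mammals, subunit 4 is a receptor for ubiquitin chains, subunit 7 a scaffold partner of the enzyme that removes them, and subunit 9 a chaperone of assembly. Subunit 4 (BGIBMGA005560) stood at 233, 192 and 151 in WT and at 193, 194 and 182 in TBH at P2, and at 104, 118 and 118 in WT and 111, 111 and 188 in TBH at P4. WT samples at P4 lay under all those at P2, as did 2 of the 3 TBH samples under those of their line. The log2 change from P2 to P4 was -0.74 ± 0.24 in WT and -0.52 ± 0.24 in TBH (limma adjusted p = 0.103 and 0.469). Subunit 7 (BGIBMGA005994) ran from 30.4 to 111 over all samples, with TBH P2 replicate 1 and WT P2 replicate 1 highest, and subunit 9 (BGIBMGA004419) from 11.2 to 38.8, with the same samples highest in the other order. Between the lines, the log2 changes of the 3 subunits ran from -0.02 to 0.13 at P2 and from 0.18 to 0.33 at P4.

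Proteasome subunits did not vary as a block over the samples. Among the 11 genes, Pearson correlations of log2 values over the 12 samples, in 55 pairs, ran from -0.68 to 0.93 with a median of 0.27, and 19 were below 0. The lowest was between the beta subunit BGIBMGA004376 and regulatory subunit 7, and the highest between the beta subunits BGIBMGA003009 and BGIBMGA009684. These are descriptions over samples that share libraries and groups.

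**Figure D2:**
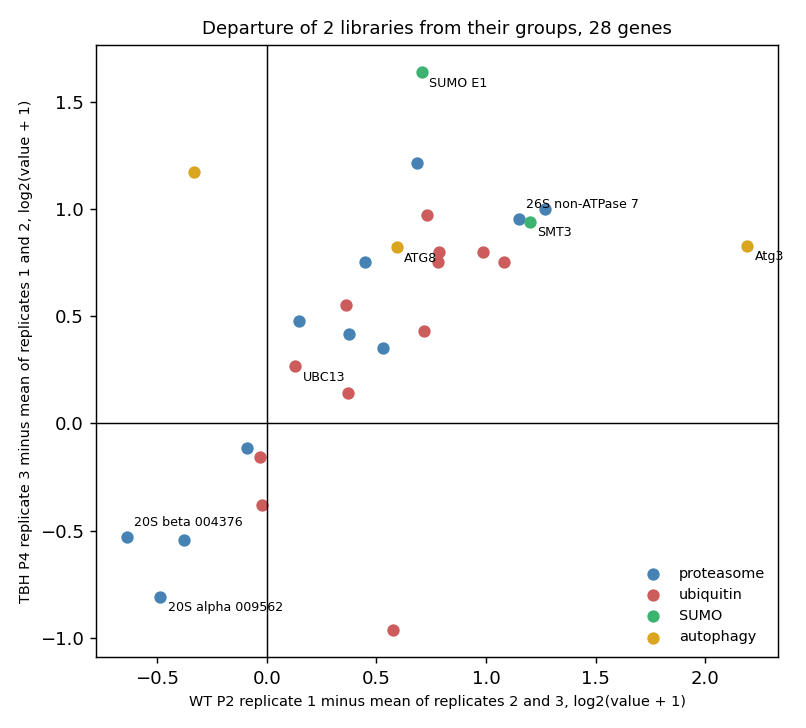
Each point is 1 of the 28 genes, colored by class. The horizontal axis gives WT P2 replicate 1 minus the mean of the other samples of its group and the vertical axis TBH P4 replicate 3 minus the mean of the others of its group, both as log2(value + 1). Of the 28 genes, 20 lay above 0 on both axes and 6 below 0 on both, among them 4 subunits of the 20S core.

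Departures of these libraries went the same way for most of the 28 genes. In WT P2 replicate 1 and in TBH P4 replicate 3, 20 genes lay above and 6 below the other samples of the group in both libraries, and 2 were split. Below in both were the core subunits BGIBMGA000201, BGIBMGA004376, BGIBMGA004657 and BGIBMGA009562 and the hydrolases BGIBMGA007317 and BGIBMGA013218. Of all 5235 tested genes, 3458 lay above and 592 below in both. The part of these libraries in the values of single genes was not tested beyond leaving them out.

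Conjugating enzymes of the ubiquitin system differed in how they varied. UBC13 (BGIBMGA002559), which in yeast and mammals builds signalling chains, had the smallest SE of the 28 (0.18) and ran from 192 to 277 over the 12 samples. Its values were 248, 199 and 258 in WT and 210, 245 and 258 in TBH at P2, and 226, 192 and 229 in WT and 213, 250 and 277 in TBH at P4. All 4 groups overlapped. The 95% interval of its log2 change between the lines ran from -0.38 to 0.43 at P2 and from -0.22 to 0.59 at P4 (limma).

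UBE2L (BGIBMGA012852) is described in the table also as E2I, the name of the SUMO-conjugating enzyme in mammals. It stood at 232, 115 and 156 in WT and at 212, 121 and 108 in TBH at P2. At P4 it stood at 70.0, 80.2 and 78.9 in WT and at 76.8, 74.2 and 132 in TBH. WT samples at P4 lay under all WT samples at P2, with a log2 change of -1.07 ± 0.33 that did not pass (limma adjusted p = 0.094). Over 16 alternatives the adjusted p lay between 0.0182 and 0.277. It was under 0.05 in the 2 that left out WT P2 replicate 2 (-1.31, 0.044 when left out alone), and highest without WT P2 replicate 1 (-0.81, 0.277). BMUBCD4 (BGIBMGA000627), another E2, ran from 19.2 to 49.5, and the E2 J1-like gene BMO.4961 (BGIBMGA004850), whose mammalian relative serves degradation at the endoplasmic reticulum, from 50.7 to 104. For both of these, WT P2 replicate 1 was the highest sample and WT P4 replicate 1 the lowest.

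Among the hydrolases, which remove ubiquitin, BMO.1322 (BGIBMGA002640) fell from P2 to P4 in WT. It stood at 207, 164 and 158 in WT and at 195, 189 and 182 in TBH at P2, and at 49.6, 103 and 85.8 in WT and 107, 82.3 and 139 in TBH at P4. In each line all samples at P4 lay under all at P2, and the lines overlapped at P4. The ratio of the group means was 0.451 in WT and 0.579 in TBH. The log2 change in WT was -1.19 ± 0.28 (SE), or -0.77 relative to the median of all genes (limma adjusted p = 0.0367), and in TBH -0.81 ± 0.28 (adjusted p = 0.272). The difference between these changes was 0.38, with a 95% interval from -0.49 to 1.25. It no longer passed with WT P2 replicate 1 left out (adjusted p = 0.121), nor without WT P4 replicate 1 (0.119) or WT P4 replicate 3 (0.0841), nor with quantile normalization (-0.75, 0.101).

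The hydrolase BGIBMGA013218 had 1 group that stood apart. WT samples at P4 stood at 2.37, 2.28 and 2.34, with an SD of 0.05. The other groups stood at 0.48, 0.14 and 1.00 (WT at P2), 0.33, 0.64 and 0.18 (TBH at P2) and 0.42, 0.39 and 0.26 (TBH at P4). All 3 WT samples at P4 lay above the other 9 samples, whichever group these were from. The log2 change was -1.30 ± 0.30 for TBH against WT at P4 and 1.15 ± 0.30 for P4 against P2 in WT, with adjusted p = 0.0551 and 0.0557 in limma. Both comparisons use the same WT samples at P4. The test of the difference in line effect between stages gave -1.17 ± 0.42 (adjusted p = 0.717). It passed the low-value filter only through WT at P4, since 1 of its other 9 values reached 1, so these tests are no independent support for its difference. Over 15 alternatives each, the adjusted p lay between 0.0172 and 0.181 for the lines at P4, under 0.05 in 3, and between 0.0126 and 0.16 for the stages in WT, under 0.05 in 4.

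The hydrolase BGIBMGA001484 did not pass the filter but was listed at 0 in all 6 TBH samples. In WT it stood at 1.85, 0.35 and 0.51 at P2 and at 1.94, 0.25 and 0 at P4. With no filter, its log2 change at P2 was -0.85 ± 0.38 (limma adjusted p = 0.8). Other hydrolases above the filter ran from 1.97 to 7.09 (BGIBMGA006669) and from 2.60 to 7.96 (BGIBMGA007317), and USP46 was above 0 in 2 samples, at 0.19 at most. Of the ligases, SMURF2 (BGIBMGA007076), which in mammals limits TGF-beta signalling, ran from 0.23 to 2.41, and the E3 ligase BGIBMGA012636 from 0.99 to 4.79.

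Relatives of ubiquitin outside degradation were Urm1 (BGIBMGA001700), a modifier that in yeast also carries sulfur to tRNA, and an activating enzyme 5 (BGIBMGA013537), whose human relative activates UFM1. Urm1 ran from 10.4 to 43.8 and the activating enzyme from 4.03 to 15.5. For Urm1, TBH P4 replicate 3 at 10.7 was the lowest of its group, and for the activating enzyme, at 15.5, the highest of all samples. Neither passed in any of the comparisons (limma adjusted p of 0.489 or more).

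Both genes of the SUMO pathway were lower at P4 than at P2 in WT without overlap, as were 21.5% of all tested genes. SMT3 (BGIBMGA011581), the SUMO gene itself, stood at 2635, 1251 and 1049 in WT and at 2293, 1781 and 1478 in TBH at P2. At P4 it stood at 827, 877 and 750 in WT and at 869, 782 and 1584 in TBH. The WT stages did not overlap, while TBH P4 replicate 3 reached into the range of TBH at P2. The log2 change was -0.89 ± 0.35 in WT and -0.83 ± 0.35 in TBH, and neither passed (limma adjusted p = 0.167 and 0.419). Relative to the median of all genes these changes were -0.47 and -0.62. Without TBH P4 replicate 3 the change in TBH was -1.14 and did not pass (adjusted p = 0.138). The same change had an adjusted p of 0.0976 when WT P2 replicate 2 was left out as well, and of 0.0183 when WT P2 replicate 1 was.

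The SUMO-1 activating enzyme (BGIBMGA002755), the E1 of the pathway, stood at 80.5, 34.8 and 68.6 in WT and at 74.5, 53.0 and 48.7 in TBH at P2. At P4 it stood at 19.5, 19.7 and 20.9 in WT and at 20.3, 21.8 and 67.6 in TBH. Of the 6 samples at P4, 5 lay between 19.5 and 21.8, under all samples at P2, and TBH P4 replicate 3 lay among those at P2. The log2 change from P2 to P4 was -1.48 ± 0.44 in WT, or -1.06 relative to the median of all genes (limma adjusted p = 0.084). In TBH it was -0.87 ± 0.44, or -0.66 relative to that median (0.528). In WT it passed in 2 of 16 alternatives, those without WT P2 replicate 2 (0.0355 when left out alone, 0.0015 with TBH P4 replicate 3 left out too), and the adjusted p of the others lay between 0.0523 and 0.245. The highest was that without WT P2 replicate 1 (-1.25). In TBH it passed only when TBH P4 replicate 3 was left out together with WT P2 replicate 1 or 2 (-1.41, 0.0391 and 0.0127), and not when TBH P4 replicate 3 alone was.

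**Figure D3:**
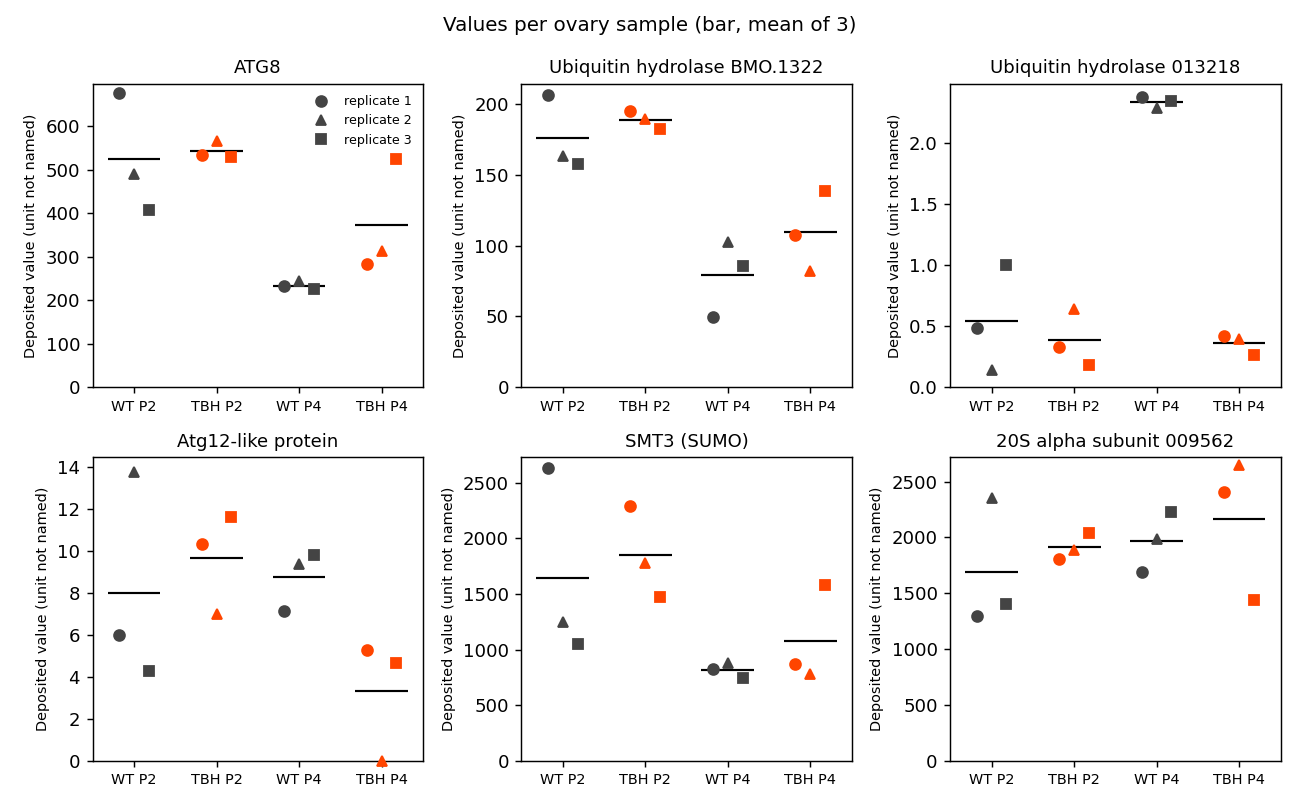
Deposited values of 6 genes in each ovary sample, with the groups on the horizontal axis, WT in grey and TBH in orange, replicates 1 to 3 as circles, triangles and squares, and a bar at the mean of 3. ATG8 stands between 225 and 243 in WT at P4 and at 408 or more in all P2 samples, the hydrolase BGIBMGA013218 is above 2 in WT at P4 only, and the square of TBH P4 lies apart for ATG8, SMT3 and the alpha subunit.

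ATG8 (BGIBMGA011783), the protein that coats the autophagosome membrane, fell from P2 to P4 in WT ovaries. It stood at 676, 492 and 408 in WT and at 534, 566 and 531 in TBH at P2. At P4 it stood at 233, 243 and 225 in WT and at 282, 313 and 526 in TBH. All 3 WT samples at P4 lay under every other sample, and TBH P4 replicate 3 lay just under the TBH samples at P2. The ratio of P4 to P2 was 0.445 in WT and 0.688 in TBH. The log2 change was -1.13 ± 0.25 in WT, or -0.71 relative to all genes (limma adjusted p = 0.0278), and -0.59 ± 0.25 in TBH (0.419). In bulk ovaries, fewer cells of a type that express a gene and less of its RNA per cell cannot be told apart.

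Between the lines, ATG8 overlapped at P2 and did not at P4. The ratio of TBH to WT at P4 was 1.60, with a log2 change of 0.62 ± 0.25, or 0.44 relative to all genes, which did not pass (limma adjusted p = 0.338). Without TBH P4 replicate 3, the log2 change was 0.35 (adjusted p = 0.754). The line effect at P4 exceeded that at P2 by a log2 of 0.54, with a 95% interval from -0.23 to 1.31. The fall in WT was no longer called without WT P2 replicate 1 (adjusted p = 0.0898) or without WT P4 replicate 1, 2 or 3 (0.0939, 0.0944 and 0.102), with the log2 change between -1.16 and -0.94. With quantile normalization it was -0.74 (0.102).

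Marker lists of other tissues separated some of the same groups and not others. For the stages in WT, the muscle and cuticle lists did not overlap, and the hemocyte and fat body lists did. For the lines at P4, the muscle and hemocyte lists did not overlap, and the cuticle and fat body lists did. The muscle list of 4 genes, of which 1 was above 0 in all samples (MLC-2, a myosin light chain) and tropomyosin-1 was at 0 throughout, summed to between 103 and 291 at P2 and between 622 and 792 at P4 in WT. In TBH it summed to between 176 and 214 at P2 and between 219 and 413 at P4. The cuticle list of 178 genes, of which 24 were above 0 in all samples and 19 in none, summed to between 5284 and 17007 at P2 and between 1858 and 4175 at P4 in WT. In TBH it summed to between 7902 and 8742 at P2 and between 1673 and 3051 at P4. The value of 17007 was that of WT P2 replicate 2, with WT P2 replicates 1 and 3 at 5678 and 5284. Most of the cuticle sum came from BGIBMGA005303, named CPH43 but described as CPH44, with a mean of 4095 over the 12 samples. Next were CPG43 (1357) and BMORCPH27 (214), the latter described also as neuropeptide-like 4A, and no other had a mean above 24.3. The hemocyte list of 2 genes, with hemocytin at 0 throughout, averaged 34.7 in WT and 53.4 in TBH at P2, and 43.1 in WT and 23.7 in TBH at P4. For it, the TBH samples at P4 overlapped neither the WT samples at P4 nor the TBH samples at P2. The list of 14 fat body and hemolymph genes, 5 of them above 0 in all samples, summed to between 87.1 and 268. Its groups overlapped in every comparison, and a 30kDa protein gene (BGIBMGA004454, mean of 137 over the 12 samples) made up most of the sum. The part of these lists in the changes of ATG8, BMO.1322 and the other genes was not tested.

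The members whose log2 values over the 12 samples were most like those of ATG8 were regulatory subunit 4 of the proteasome (Pearson r = 0.96), SMT3 (0.92) and the beta subunit BGIBMGA003009 (0.91), among 27 compared. The samples share groups and the libraries that stand apart, so these values are a description.

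The other autophagy genes were listed at 0 in 1 library. ATG3 (BGIBMGA003767) stood at 18.3, 2.79 and 3.71 in WT and at 4.57, 1.96 and 3.02 in TBH at P2, and at 7.76, 8.83 and 4.90 in WT and 12.01, 0 and 5.41 in TBH at P4. Its highest value was WT P2 replicate 1, and the groups compared overlapped. The Atg12-like gene (BGIBMGA003954) stood at 6.01, 13.8 and 4.28 in WT and at 10.3, 6.99 and 11.6 in TBH at P2, and at 7.14, 9.37 and 9.80 in WT and 5.29, 0 and 4.65 in TBH at P4. Its TBH samples at P4 lay under all WT samples at P4 and all TBH samples at P2. The log2 change between the lines at P4 was -1.56 ± 0.65 (limma adjusted p = 0.364), and -0.70 without TBH P4 replicate 2 (0.638). In that library both ATG3 and the Atg12-like gene were listed at 0, with ATG8 at 313.

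**Figure D4:**
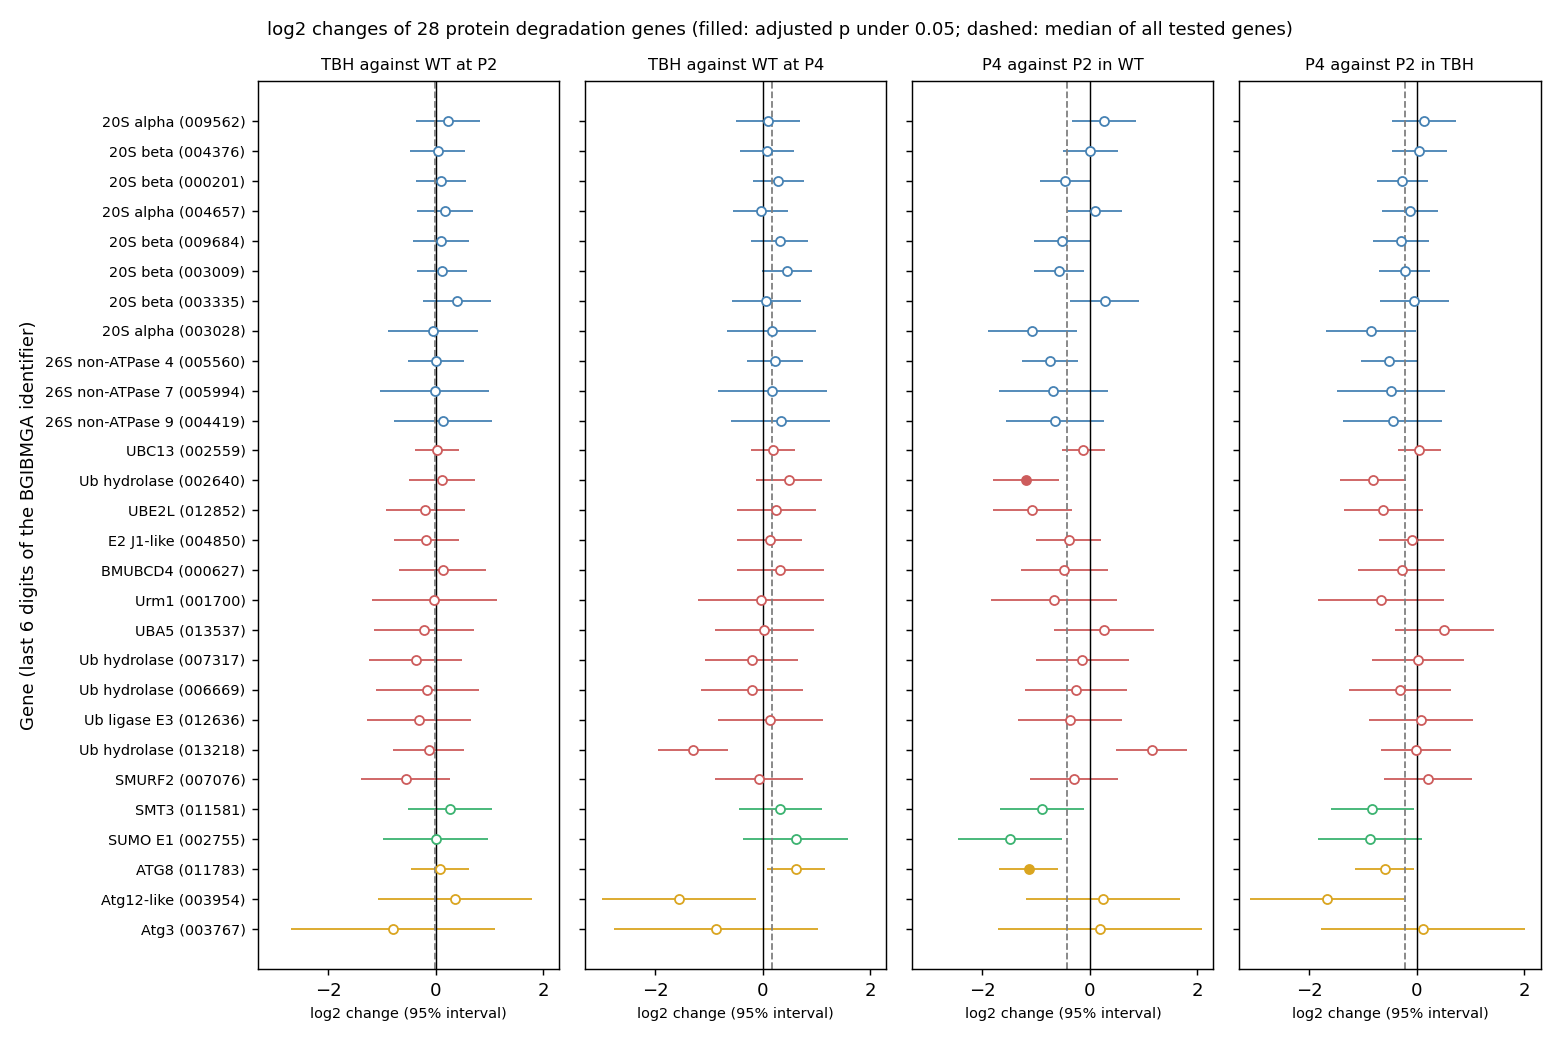
Each panel gives the log2 changes of the 28 genes in 1 comparison on the horizontal axis, with bars for the 95% interval of the limma fit, colored by class. Filled points mark an adjusted p under 0.05 and the dashed line the median of all tested genes. Only ATG8 (-1.13) and BMO.1322 (-1.19) are filled, both for P4 against P2 in WT, and most intervals in the panels comparing lines include 0.

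Summed over each class, levels in TBH were 0.97 to 1.12 times those in WT at P2 (ubiquitin lowest, SUMO highest) and 1.12 to 1.53 times at P4 (proteasome lowest, autophagy highest). The autophagy sum was mostly ATG8, with a mean of 374 of 383 in TBH at P4. ATG3 and the Atg12-like gene were lower in TBH at P4, by a log2 of -0.87 and -1.56, and neither passed. From P2 to P4 the ratio in WT was 0.939 for the proteasome, 0.664 for the ubiquitin system, 0.491 for SUMO and 0.461 for autophagy, and in TBH 0.979, 0.806, 0.584 and 0.688. These ratios include the shift of all tested genes. Its median log2 was -0.01 between the lines at P2 and 0.18 at P4, and between the stages -0.42 in WT and -0.21 in TBH. The 11 proteasome genes had a median log2 change of 0.18 for the lines at P4 and -0.51 for the stages in WT. The proteasome sum ran from 3777 to 5955 in WT and from 4876 to 5213 in TBH at P2, and from 3960 to 4760 in WT and from 4203 to 5462 in TBH at P4. Leaving out TBH P4 replicate 3 moved the ratios of TBH to WT at P4 in both directions. The ratio rose from 1.12 to 1.203 for the proteasome. It fell from 1.18 to 1.05 for the ubiquitin system, from 1.33 to 1.01 for SUMO and from 1.53 to 1.23 for autophagy. As a share of the listed total, which itself differs between samples, the proteasome sum at P4 was 0.744% ± 0.050 (SD, n = 3) in WT and 0.892% ± 0.063 in TBH, without overlap. The ubiquitin and autophagy shares did not overlap between the lines at P4 either, and the SUMO shares did. At P4 the listed totals ran from 556816 to 606967 in WT and from 500449 to 575390 in TBH. Dividing by them therefore does not take out the median shift of all genes towards TBH. In the deposited values, 14.0% of all tested genes were higher in TBH at P4 without overlap. As deposited, the proteasome, ubiquitin and SUMO sums overlapped between the lines at P4, and the autophagy sums did not. These sums are carried by a few genes with large values and are given without a test.

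Other genes of proteolysis, found by words such as protease, peptidase, caspase, vacuolar or cullin, numbered 25, of which 13 were tested. In limma 0 of the 13 passed in any comparison, against 1.49% of all tested genes for the lines at P2, 1.93% at P4, 3.09% lower and 1.01% higher for the stages in WT, 1.70% for those in TBH and 0.287% for the difference of the line effect. At an unadjusted p under 0.05, where 7.41% of all genes were higher in TBH at P4 and 18.7% lower at P4 in WT, subunit G of the vacuolar ATPase (BGIBMGA013678), the pump that acidifies lysosomes, was higher in TBH at P4, and lower at P4 than at P2 in WT. It stood at 187.7 ± 4.99 (SD, n = 3) in WT and 335 ± 136 in TBH at P4 (limma adjusted p = 0.376), and the log2 change from P2 to P4 in WT was -1.12 ± 0.32 (0.0756). Libraries that stood apart were its highest here, too: TBH P4 replicate 3 at 492 beside 264 and 248, and WT P2 replicate 1 at 669 beside 319 and 323. A serine proteinase-like gene (BGIBMGA009551) was lower in TBH at P2 at an unadjusted p under 0.05 (adjusted p = 0.633), against 3.50% of all genes. For the stages in TBH and the difference of the line effect, 0 of the 13 were under it.

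Because no description named a cathepsin, the gene BCP (BGIBMGA011342) was looked up afterwards. It is listed as fibroinase, a cysteine protease of the cathepsin L type in the silkworm. It stood at 325, 142 and 122 in WT and at 264, 243 and 162 in TBH at P2, and at 199.6, 166 and 281 in WT and 269, 327 and 363 in TBH at P4. The lines overlapped at both stages, with a log2 change of 0.59 ± 0.36 at P4 (limma adjusted p = 0.638). All TBH samples at P4 lay above those at P2, a change that did not pass (0.54 ± 0.36, adjusted p = 0.635).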

How the data were processed

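The authors deposited 1 table with a normalized expression signal per transcript for 12 ovary samples, 3 of each line and stage, and 4 columns of group means that were not used. The unit of this signal is named neither in the file header nor in the labels. Per the submitters' processing notes, the tools used included Cufflinks and DESeq2, with neither version nor role stated. Not given in the sources used here are the aligner, the build and the annotation. Depth in reads is unknown, so no counting interval is given. Gene names and products are those of the table, since 0 of the 38 identifiers matched the RefSeq name table.

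Values were taken as log2(value + 1) for the 5235 genes that reached 1 in 3 or more samples, without further scaling. Adding 1 understates the changes of low genes. Group means of all 12 samples were fitted with limma 3.58.1 in R 4.3.3 (eBayes, trend on). Benjamini-Hochberg adjustment ran over all tested genes, with a threshold of 0.05. A count model had been foreseen in case of counts and did not apply. Also foreseen was a permutation test of class sums, which was not run, so the sums are given without a test. The fit was tested on simulated data. Errors of log2 changes are standard errors.

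The genes and lists were chosen with earlier results of these data known. Named genes are those past the threshold, the 6 with the highest mean among proteasome and ubiquitin genes, all SUMO and autophagy genes, and the 3 genes most like ATG8. Other genes are named to account for all 38, and the ovary genes and BCP were chosen after their values were seen. The alternatives were quantile normalization, a pseudocount of 0.1, no filter, a minimum mean of 10, a fit with no trend, a fit of the compared groups alone, replicate number as a block, and each sample left out. Added after seeing the data were equal listed totals and leaving out WT P2 replicate 1 or 2 together with TBH P4 replicate 3, and class sums without the latter.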

Additional observations from a re-analysis of the deposited data

How the results depend on the processing

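For TBH against WT at P2 and for the difference of the line effect between stages, 0 of the 28 genes were called under each alternative run. For TBH against WT at P4, 1 was called with quantile normalization, 1 with limma without trend and 1 with only the groups compared, each time the hydrolase BGIBMGA013218, which passed the low-value filter only through the WT samples at P4, and 0 under the others. For P4 against P2 in WT, where 2 were called, ATG8 and BMO.1322 lost their calls with quantile normalization and with limma without trend. In both settings BGIBMGA013218 was called instead, higher at P4 (log2 change 1.42 and 1.15). The count was 1 in each of these settings, 0 with no filter, 0 with only the groups compared and 0 with the replicate block. It ran from 0 to 5 when 1 sample was left out (0 without WT P2 replicate 1, WT P4 replicate 1 or WT P4 replicate 3, 1 without WT P4 replicate 2, and, leaving out WT P2, 4 with replicate 2 removed and 5 with replicate 3 removed). With TBH P4 replicate 3 removed too, it was 8 when WT P2 replicate 2 was also left out (6 lower, 2 higher), and 1, ATG8, when WT P2 replicate 1 was. For P4 against P2 in TBH these last settings called 1 and 4, all lower, and the others 0. Over all tested genes the count of calls was 78 for the lines at P2 (21 to 137 over the alternatives), 101 at P4 (51 to 144), 215 for the stages in WT (72 to 1190), 89 in TBH (54 to 194) and 15 for the difference of the line effect (4 to 20). The log2 change of ATG8 in WT lay between -1.30 and -0.74 over 16 alternatives and lost its call in 9 of them (adjusted p from 0.00624 to 0.102). That of BMO.1322 lay between -1.41 and -0.75 and lost its call in 9 of 16 (0.0225 to 0.133). Of the 28 genes, no change with an unadjusted p under 0.05 turned its direction in the alternatives run. The other proteolysis genes were not run under the alternatives. The cause of these differences was not tested. No pairing by replicate number was seen in the deviations from the group means. Over 18 pairs of the same number these correlated from -0.18 to 0.24, with 1 pair over 0.1. Of 12 samples, 2 were most like a sample of their own number in another group. Libraries that stood apart had different numbers, such as WT P2 replicate 1 and TBH P4 replicate 3, and weigh on these correlations. A batch shared by number was therefore not tested. With the replicate block, ATG8 had an adjusted p = 0.0736 in WT and BMO.1322 0.085. Without read counts, the depth behind low values such as those of BGIBMGA013218 cannot be given.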
